A study of Mus musculus with 3 samples.

Results

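Cytosolic ribosomal protein genes encode the protein parts of the small (40S) and large (60S) ribosomal subunits. They were followed here in mouse C2C12 myoblasts, a line of muscle precursor cells. Their members were the probe sets with 1 gene symbol that starts with Rpl or Rps and a digit, or is Rplp0, Rplp1, Rplp2 or Rpsa, without the S6 kinases and pseudogenes. This rule, which uses names and no measured value, found 100 of 22690 probe sets and 48 of 12393 named genes, 22 of the 40S and 26 of the 60S subunit. The study held 3 groups, all labelled 12 h. In the first, diacylglycerol kinase zeta (DGK-zeta), a lipid kinase that makes phosphatidic acid, had been introduced by transfection. In the second, the transfected gene was that of enhanced green fluorescent protein (EGFP), and the last was untreated C2C12 cells. Cells had been in culture for 18 h before the transfections, which used the FuGene method. How many cells took up DNA is unstated in the labels, and RNA came from whole cultures. Each group had 1 array, so no difference has a replicate check, no p-value or error is given, and sizes alone are described.

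Each ribosome needs 1 copy of nearly every ribosomal protein, and cells make these proteins in close proportion to each other and to ribosomal RNA. Their mRNAs are among the most abundant in growing cells and start with a tract of pyrimidines (the 5′ terminal oligopyrimidine tract, TOP), through which mTOR, a kinase that senses nutrients and growth factors, controls their translation. mTOR is known to bind phosphatidic acid, the product of DGK-zeta. When ribosome assembly is disturbed, free Rpl11 binds Mdm2, the ubiquitin ligase of p53. Array signals report mRNA levels and not translation.

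The start sites are shown because the TOP tract is the sequence these genes share. RefSeq promoter windows of the GRCm38.p6 assembly were found for 42 of the 48 genes, with 50 annotated start sites. Each sequence runs 5′ to 3′ on the strand of the gene, from 40 bases before the annotated start to the first 20 bases of the transcript, and capitals mark the pyrimidine run nearest the start. Rps6, Rps27 and Rpl37 are the members with array ratios past 1.5-fold, Rps24 (the first of 2 starts) is one whose probe sets disagree, and Rps10, Rpl35 and Rpl38 show longer or exactly placed runs.
Rps6, chr4:86857348-86857407, minus strand: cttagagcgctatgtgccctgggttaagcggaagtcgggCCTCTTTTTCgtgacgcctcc
Rps27, chr3:90213629-90213688, minus strand: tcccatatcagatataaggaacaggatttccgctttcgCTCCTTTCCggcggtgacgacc
Rpl37, chr15:5116573-5116632, plus strand: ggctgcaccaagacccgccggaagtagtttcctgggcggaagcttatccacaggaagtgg
Rps24, chr14:24490638-24490697, plus strand: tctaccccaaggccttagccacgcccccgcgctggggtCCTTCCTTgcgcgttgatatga
Rps10, chr17:27635225-27635284, minus strand: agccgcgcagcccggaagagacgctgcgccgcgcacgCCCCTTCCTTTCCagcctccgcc
Rpl35, chr2:39005112-39005171, minus strand: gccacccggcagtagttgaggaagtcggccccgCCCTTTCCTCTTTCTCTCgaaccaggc
Rpl38, chr11:114668540-114668599, plus strand: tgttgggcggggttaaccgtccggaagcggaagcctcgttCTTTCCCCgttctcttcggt
Rpl37 had no run at its annotated start. A C at the first base followed by at least 4 further C or T bases, allowing the run to begin earlier, was found at 8 of 50 member starts (16%), against 2.51% of 32851 start sites of all genes and 2.44% of those of other genes measured on all 3 arrays. The 8 genes were Rpl14, Rpl35, Rpl38, Rplp2, Rps10, Rps18, Rps27 and Rps6. With the C allowed within 5 bases of the annotated start, it was found at 21 member starts (42%), against 18.3% of all starts and 19.5% of those of other measured genes. The letters CTTTC, which can lie inside such a run, stood within 20 bases of 12 member starts (24%), against 5.49% of all starts and 4.21% of those of other measured genes, on the transcript's strand. CCGGAAG, searched on both strands of the 300 bases, was present in 21 member windows (42%), against 8.86% of all windows and 20.3% of those of other measured genes. In none of these 21 did it share a base with the pyrimidine run or with CTTTC near the start (0 of 21). TATAAA, between 40 and 20 bases before the start, was found in 1 member window (2%), that of Rpl22l1, against 1.87% of all windows and 0.824% of those of other measured genes. CACGTG, which reads the same on both strands, was found in 5 (10%), against 7.15% of all windows and 10.7% of those of other measured genes. These are matches of letters in annotated windows, with no measurement of binding or of the true start.

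The values are MAS5 signals, linear units that the authors' software scales per array. The transfected gene was checked first: Dgkz had signals of 13466 in DGK-zeta cells, 1053 in EGFP cells and 1500.1 in untreated cells. A gene is given by its brightest probe set and counted as measured when at least 1 of the arrays compared reached 107 (the floor, which is the median over every deposited value). Of 9 myoblast markers 6 were measured, among them Vim, Des and Myf5, while Myod1, Myog and Pax7 were under 107 on every array, as were all 9 markers of other cell types. The ratio of the 3′ to the 5′ control probe set of Actb, a sign of shortened labelled RNA, was 2.55 in DGK-zeta cells, 1.43 in EGFP cells and 1.27 in untreated cells. For Gapdh it was 0.931, 0.902 and 0.841 on the same arrays. The part of these differences in the ratios below was not tested.

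Many ribosomal protein genes had signals near the top of the range on every array. Of 48 genes, 45 reached the floor on all 3 arrays, and 33 had signals of at least 10000 on all 3. The 100 member probe sets held 5.82% of the summed signal in DGK-zeta cells, 6.04% in EGFP cells and 6.18% in untreated cells. They supplied 56, 57 and 58 of the 227 brightest probe sets (the top 1%) on the same arrays. The median signal of the 45 genes was 14128 in DGK-zeta cells, 14641 in EGFP cells and 15382 in untreated cells. In bulk RNA, fewer cells of a type and less RNA per cell cannot be told apart.

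**Figure D1:**
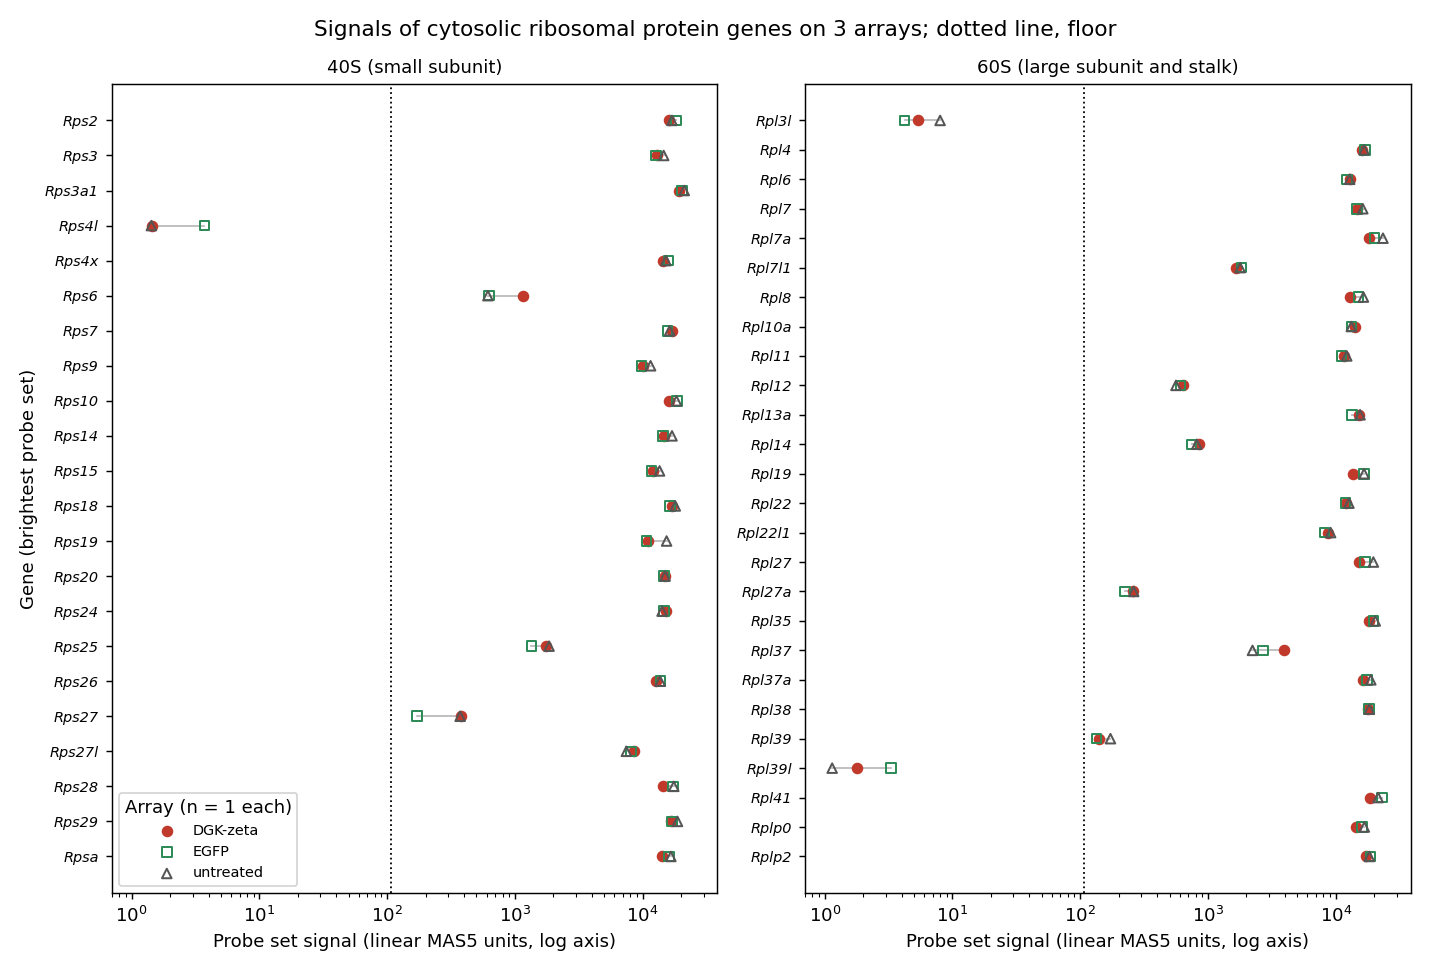
Signal of each ribosomal protein gene (linear MAS5 units on a log axis) in DGK-zeta cells (filled circles), EGFP cells (open squares) and untreated cells (open triangles), 1 array each, with 40S genes on the left and 60S genes on the right. For 36 of the 45 measured genes the 3 symbols lie within 0.32 of each other in log2, and Rpl3l, Rpl39l and Rps4l lie left of the dotted line at 107.

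Most members had nearly equal signals on the 3 arrays. The highest signal was a median of 1.14 times the lowest over the 45 genes, and it was within 0.32 of the lowest in log2 for 36 of them (80%). Over all 6427 genes measured on all 3 arrays the median was 1.29, and 41.7% were within 0.32. Signal level goes with this: the 283 other genes with a mean signal of at least 5000 had a median of 1.16, with 74.6% within 0.32. The 36 members of that signal had a median of 1.13, with 88.9% within 0.32. Rps20, a 40S protein, varied least, with 14860 in DGK-zeta cells, 14755 in EGFP cells and 14978 in untreated cells. Rps27, a zinc finger protein of the 40S subunit, varied most. Untreated cells had the highest signal of the 3 for 27 of the 45 genes, DGK-zeta cells for 10 and EGFP cells for 8. Over all 6427 genes the highest signal was in untreated cells for 29.8%, and over the 283 other bright genes for 29.7%. DGK-zeta cells had the lowest for 21, EGFP cells for 18 and untreated cells for 6. For all 6427 genes the lowest signal fell on these arrays in 41.1%, 27.6% and 31.3% of cases. Over the 283 other bright genes it did so in 32.5%, 34.3% and 33.2%, and over the 36 members of mean signal at least 5000 in 55.6%, 36.1% and 8.33%.

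The first comparison, DGK-zeta over EGFP, sets the kinase against the control for transfection. The members' median log2 ratio was 0.01, beside -0.02 over all 6927 measured genes, with quartiles of -0.14 and 0.08, and 24 of 45 genes lay above 0, beside 47.4% of all measured genes. The 21 measured 40S genes had a median of 0.03 and the 24 of the 60S subunit one of -0.02. Against that narrow spread, 2 genes were at least 1.5-fold higher in DGK-zeta cells, Rps27 and Rps6, beside 3.49% of all measured genes. None was 1.5-fold lower, beside 11.7% of all measured genes. Rps27 and Rps6 are not among the 36 members of mean signal at least 5000, of which 0 passed 1.5-fold. Of the 283 other genes of that signal, 0.707% were past it upwards and 1.41% downwards. The median of the 36 was -0.03, beside 0.03 for the 283, so the sign of the difference from other genes turned with the set compared.

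Rps6, the 40S protein that S6 kinases phosphorylate downstream of mTOR, had a signal of 1149 in DGK-zeta cells, against 629 in EGFP cells and 615 in untreated cells. DGK-zeta cells stood apart from both others, 1.83-fold above EGFP (log2 0.87) and 1.87-fold above untreated cells (log2 0.90), while the 2 other arrays were close. This came from 1 probe set: the other Rps6 set was under 107 on all 3 arrays. Set to the floor, that other set had a log2 ratio of 0. The mean over both sets, 0.43 to EGFP and 0.45 to untreated cells, is therefore lower by construction and is no second reading. A further 9 probe sets are annotated to Rps6 together with other symbols and cannot be assigned to 1 gene. Looked at after the values above were known, 8 of them were measured, with log2 ratios of DGK-zeta over EGFP from -0.55 to 0.18 and a median of -0.18. Against untreated cells they ran from -0.39 to 0.13, with a median of -0.25. Among them was a set with 16326 in DGK-zeta cells, 20520 in EGFP cells and 21304 in untreated cells, far above the single Rps6 set. The higher signal of the single Rps6 set in DGK-zeta cells was thus not seen in sets that list Rps6 with others.

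Rps27 had signals of 380.5 in DGK-zeta cells, 171 in EGFP cells and 373 in untreated cells. Here EGFP cells were the ones apart, so that DGK-zeta over EGFP was 2.22-fold (log2 1.15) and DGK-zeta over untreated was 0.03 in log2. The 1 probe set annotated to Rps27 with other symbols had 10336 in DGK-zeta cells, 12501 in EGFP cells and 12137 in untreated cells, a log2 ratio of -0.27 to EGFP. Rps27l, the paralogue of Rps27 that is a known target of p53, had 8609 in DGK-zeta cells, 8101 in EGFP cells and 7452 in untreated cells. Its log2 ratio was 0.09 to EGFP and 0.21 to untreated cells, under 1.5-fold in both.

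Next in order came Rpl37, Rps25 and Rpl27a, all under 1.5-fold. Rpl37, of the 60S subunit, had 3916 in DGK-zeta cells, 2703 in EGFP cells and 2229 in untreated cells, a log2 ratio of 0.53 to EGFP. Rps25, a 40S protein that some viral mRNAs need for initiation, had 1756 in DGK-zeta cells, 1348 in EGFP cells and 1851 in untreated cells. EGFP cells were the low array for it, and DGK-zeta cells were 0.38 above them in log2. At the low end stood Rpl41, a very short basic peptide of the 60S subunit, with 18580 in DGK-zeta cells, 22989 in EGFP cells and 21448 in untreated cells (log2 -0.31 to EGFP). The 4 sets of Rpl41 measured on all 3 arrays ran from -0.62 to -0.27 to EGFP. Rpl19, also of the 60S subunit, had 13707 in DGK-zeta cells, 16582 in EGFP cells and 16641 in untreated cells, a log2 ratio of -0.27. Rps28 and Rps10 of the 40S subunit and Rpl8 of the 60S subunit followed at -0.25, -0.20 and -0.21. All 5 low genes are bright, and DGK-zeta cells held the lowest of the 3 signals for each.

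**Figure D2:**
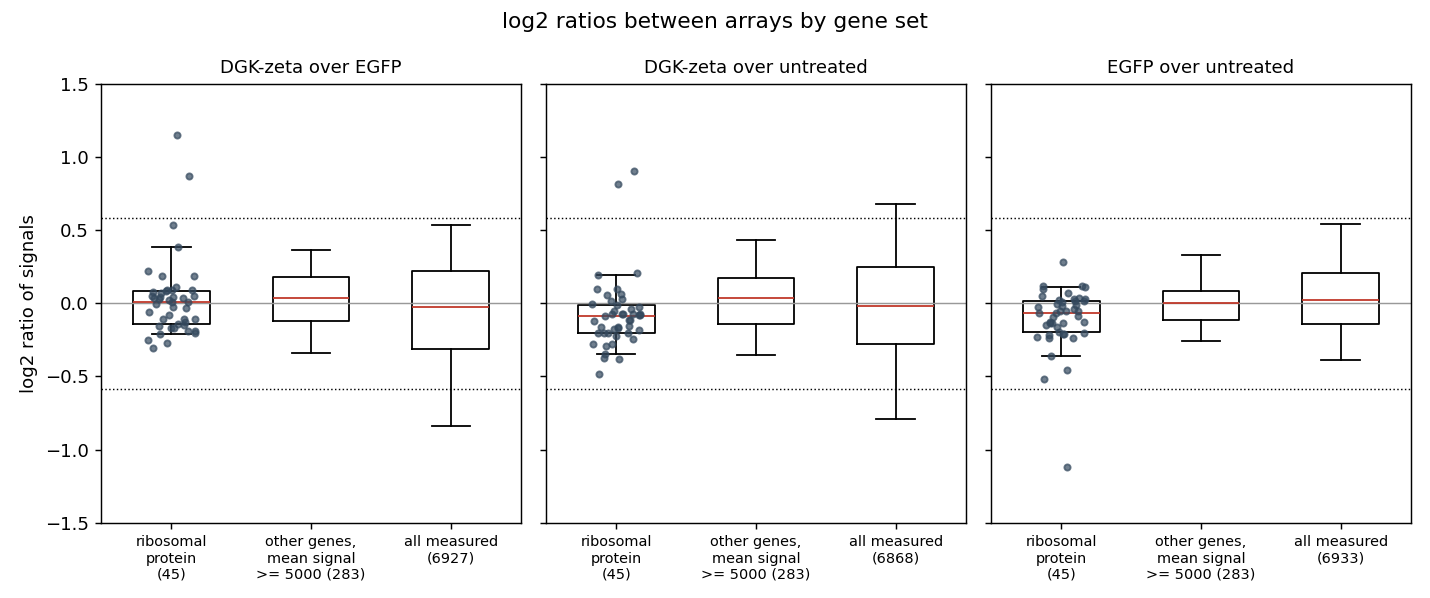
log2 ratios between arrays for the 45 measured ribosomal protein genes (points with box), the 283 other genes of mean signal at least 5000 and all measured genes (numbers in brackets), in 3 comparisons. Boxes span the quartiles with the median as a line, whiskers reach the 5th and 95th percentiles, and dotted lines mark 1.5-fold; 2 members lie above the upper line in each comparison of DGK-zeta cells and 1 below the lower line for EGFP over untreated.

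DGK-zeta over untreated adds transfection itself to the difference. The members' median log2 ratio was -0.09, beside -0.02 over all 6868 measured genes, and it lay between 0.00 and 0.17 under 3 other scalings of the arrays. The difference between the members' and all genes' medians was -0.07, and between -0.05 and -0.07 under those scalings. In the deposited scaling 10 of 45 genes lay above 0, beside 48.3% of all measured genes. Among the 36 members of mean signal at least 5000, the median was -0.14 and 5 lay above 0, while the 283 other genes of that signal had a median of 0.03 with 156 above 0. Members at least 1.5-fold higher in DGK-zeta cells were Rps6 and Rpl37, 2 of 45, beside 7.11% of all measured genes. None was 1.5-fold lower, beside 10.0% of all. Of the 283 other bright genes, 3.18% were past this ratio upwards and 2.12% downwards, against none of the 36 bright members. Rpl37 was 1.76-fold above untreated cells (log2 0.81), with EGFP cells in between. It had 1 probe set with its symbol alone, and the 3 that list it with others had a median log2 ratio of 0.03, from -0.61 to 0.48. The set at -0.61 was under the floor in DGK-zeta and EGFP cells and had 163 in untreated cells. The set at 0.48 had 13900 in DGK-zeta cells, 13905 in EGFP cells and 9935 in untreated cells. The brightest of those 3, with 15026 in DGK-zeta cells, 16630 in EGFP cells and 14733 in untreated cells, lay far above the single Rpl37 set.

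The lowest ratio to untreated cells was that of Rps19, a 40S protein whose human gene is often mutated in Diamond-Blackfan anaemia. Rps19 had 11012 in DGK-zeta cells, 10749 in EGFP cells and 15382 in untreated cells. Both transfected arrays were alike for it and untreated cells stood higher, with log2 ratios of -0.48 for DGK-zeta and -0.52 for EGFP over untreated. Rpl27, of the 60S subunit, had 15098 in DGK-zeta cells, 16969 in EGFP cells and 19678 in untreated cells (log2 -0.38). Rpl7a, which lies near the exit of the peptide tunnel, had 18080 in DGK-zeta cells, 20140 in EGFP cells and 23397 in untreated cells (-0.37). Rpl8, a protein near the catalytic centre of the 60S subunit, had 12962 in DGK-zeta cells, 15027 in EGFP cells and 16453 in untreated cells (-0.34). By their brightest sets these 3 had the same order of arrays, with EGFP cells between the others. Other sets of Rpl27 did not show it. A set with 7552 in DGK-zeta cells, 6903 in EGFP cells and 7266 in untreated cells was at 0.06 to untreated cells. Another, with 7176, 6849 and 6970 on the same arrays, was at 0.04. Rpl39, a short protein of the exit tunnel, was close to the floor, at 141 in DGK-zeta cells, 134 in EGFP cells and 172 in untreated cells (-0.29). After Rps6 and Rpl37, the highest were Rps27l (0.21), Rpl12 (0.19) and Rps24 (0.10). Rpl12, a protein at the base of the stalk, had 641 in DGK-zeta cells, 609 in EGFP cells and 561 in untreated cells.

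EGFP over untreated sets the transfection control against untreated cells. This comparison shares its arrays with the others, so the same array enters both. The members' median was -0.06, beside 0.02 over all 6933 measured genes, and 14 of 45 genes lay above 0, beside 53.6% of all measured genes and 48.4% of the 283 other bright ones. The median was below 0 under the 3 other scalings too, and 0.01 over the second-brightest probe sets, which 19 members had. Rps27 was the 1 gene at least 1.5-fold lower in EGFP cells (log2 -1.12), beside 1.54% of all measured genes. None was 1.5-fold higher, beside 4.10% of all. Of the 283 other bright genes, 0.353% were 1.5-fold higher and 0.00% lower. Below 0 after Rps27 and Rps19 came Rps25 (-0.46), Rpl39 (-0.36) and Rps9 (-0.24). The highest were Rpl37 (0.28), Rps27l (0.12), Rpl12 (0.12), Rps2 (0.11) and Rpl41 (0.10).

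Some members are known for more than their place in the subunit. Rplp0, the scaffold of the stalk that recruits translation factors to the 60S subunit, had 14297 in DGK-zeta cells, 16107 in EGFP cells and 16723 in untreated cells. Rplp2, its partner in the stalk, had 17381 in DGK-zeta cells, 18698 in EGFP cells and 18316 in untreated cells. Both were lowest in DGK-zeta cells, by 0.17 and 0.11 in log2 below EGFP cells. Rpsa, a 40S protein also known as a laminin receptor precursor, had 14054 in DGK-zeta cells, 16041 in EGFP cells and 16615 in untreated cells (log2 -0.19 to EGFP). Rpl11, which can bind Mdm2, had 11500.1 in DGK-zeta cells, 11119 in EGFP cells and 12182 in untreated cells. Its log2 ratio to EGFP was 0.05, smaller in size than those of the stalk genes.

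Of the paralogues of common members, Rpl3l, Rpl39l and Rps4l were under the floor, and Rps27l, Rpl22l1 and Rpl7l1 were measured on all 3 arrays. Rpl3l, the striated muscle form of Rpl3, had 5.37 in DGK-zeta cells, 4.22 in EGFP cells and 8.0 in untreated cells. Rpl39l, known from the testis, had 1.79, 3.29 and 1.14 on the same arrays, and Rps4l had 1.45, 3.71 and 1.43. At these signals no ratio is given. Rps4x, the common form, had 14430 in DGK-zeta cells, 15953 in EGFP cells and 15200 in untreated cells. Rpl22l1 was measured beside its relative Rpl22, at 8641 in DGK-zeta cells, 8134 in EGFP cells and 9109 in untreated cells. Rpl22 had 12013 in DGK-zeta cells, 11949 in EGFP cells and 12675 in untreated cells. Neither of this pair reached 1.5-fold in any comparison, nor did Rpl7l1, with 1647 in DGK-zeta cells, 1823 in EGFP cells and 1785 in untreated cells.

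Several probe sets of 1 gene allow a check within each array. Such sets read the same RNA with other probes and say nothing of the spread between cultures. For 19 members with at least 2 sets measured on all 3 arrays, the log2 ratios of the 2 brightest sets differed by a median of 0.11 for DGK-zeta over EGFP, 0.10 for DGK-zeta over untreated and 0.11 for EGFP over untreated. For 2232 other genes, not matched to the members for signal level, the medians were 0.34, 0.39 and 0.21. Many ribosomal protein probe sets carry suffixes that mark probes shared between transcripts (40 of 100 end in _x_at and 2 in _s_at). Close agreement can thus include shared targets, and pseudogenes of these genes are common.

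In 3 genes the sets differed by at least 1 in log2 ratio. Rpl7, of the 60S subunit, had a set with 7592 in DGK-zeta cells, 3526 in EGFP cells and 3368 in untreated cells, a log2 ratio of 1.11 to EGFP and 1.17 to untreated cells. Its brightest set had 14565 in DGK-zeta cells, 14641 in EGFP cells and 16270 in untreated cells, at -0.01 and -0.16. The sets of Rpl7 therefore gave different readings of the same arrays. Rps24, a 40S protein with several known splice forms, had a set with 10590 in DGK-zeta cells, 9017 in EGFP cells and 4640 in untreated cells. That set was 1.19 above untreated cells in log2 for DGK-zeta and 0.96 for EGFP, while its brightest set, at 15165 in DGK-zeta cells, 14680 in EGFP cells and 14184 in untreated cells, was at 0.10 and 0.05. Rps9, of the 40S subunit, had a set with 296 in DGK-zeta cells, 317 in EGFP cells and 166 in untreated cells (log2 0.83 for DGK-zeta over untreated). Its brightest set, with 9993 in DGK-zeta cells, 9778 in EGFP cells and 11528 in untreated cells, was at -0.21. Transcript forms and probe positions were not used here, so these sets could not be assigned to forms.

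**Figure D3:**
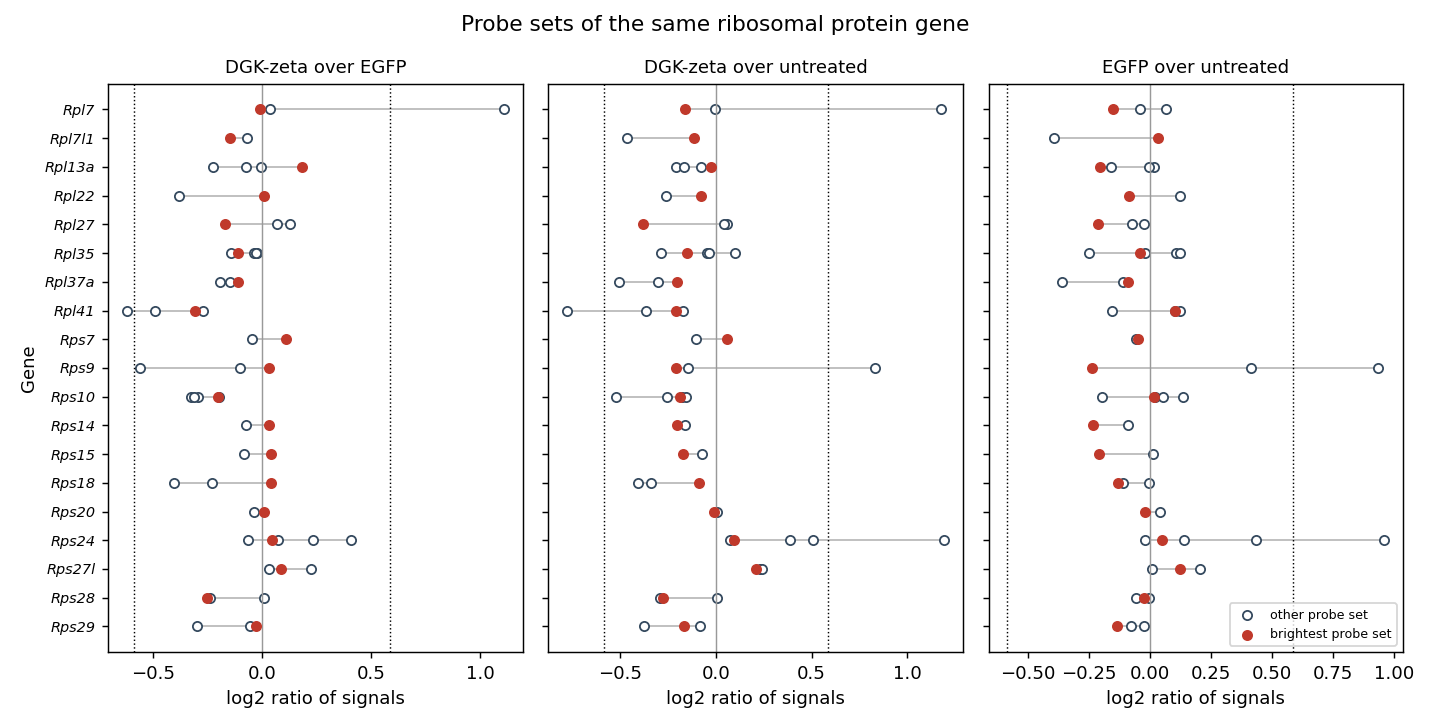
log2 ratios of every probe set measured on all 3 arrays for the 19 ribosomal protein genes with at least 2 such sets, the brightest filled and the others open, in 3 comparisons. Dotted lines mark 1.5-fold; 1 set each of Rpl7, Rps24 and Rps9 lies at 0.83 or more over untreated cells or EGFP, far from the brightest set of its gene.

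The start site sequences were set beside the ratios. The 20 measured genes with a pyrimidine run within 5 bases of the start had a median log2 ratio of 0.05 for DGK-zeta over EGFP, and the 20 with a window and no such run had -0.03. For DGK-zeta over untreated the medians were -0.08 and -0.12, and for EGFP over untreated -0.03 and -0.06. Rps6 and Rps27 have a run and Rpl37 has none, so the 3 genes past 1.5-fold fell on both sides.

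Genes that work with the ribosomal proteins were counted in the same way, from lists drawn up with results of these arrays known. Their counts stand beside the shares of all measured genes, 3.49% higher and 11.7% lower for DGK-zeta over EGFP and 7.11% and 10.0% for DGK-zeta over untreated. Of 15 translation factors and other genes with known TOP tracts, none reached 1.5-fold by its brightest set in any comparison, and their medians were 0.03 for DGK-zeta over EGFP, -0.06 for DGK-zeta over untreated and -0.07 for EGFP over untreated. Closest was Eef2, the elongation factor that moves the ribosome along the mRNA, with 6876 in DGK-zeta cells, 10268 in EGFP cells and 9876 in untreated cells (log2 -0.58 and -0.52). Of 17 other measured sets of these genes, 3 were 1.5-fold lower in DGK-zeta than in untreated cells (of Eif2s3x, Eif4b and Hnrnpa1) and 1 was higher (of Pabpc1). None of 25 initiation factors reached 1.5-fold by its brightest set either, but their probe sets disagreed. Of 28 other measured sets, 7 were 1.5-fold lower and 0 higher in DGK-zeta than in EGFP cells, and 9 lower and 1 higher than in untreated cells. Beside these and the 17 above, second-brightest sets of all genes were lower in 467 and higher in 141 of 2649 for DGK-zeta over EGFP. For DGK-zeta over untreated they were lower in 540 and higher in 232 of 2648. Eif3c, of the factor that holds the 40S subunit ready for mRNA, had a set with 291 in DGK-zeta cells, 789 in EGFP cells and 1886 in untreated cells (log2 -1.44 and -2.70), while its brightest set was at 0.16 and -0.14. Eif5, which acts on start codon choice, had a set with 2486 in DGK-zeta cells, 4144 in EGFP cells and 8167 in untreated cells (-0.74 and -1.72), while its brightest was at 0.04 and 0.09. These sets were looked up after the counts by brightest set were known. Fau, a ribosomal protein outside the naming rule, had 9033 in DGK-zeta cells, 10193 in EGFP cells and 10970 in untreated cells.

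Ribosome assembly genes spread much as all genes do, with an SD of log2 ratios across genes of 0.41 for DGK-zeta over EGFP, beside 0.43 over all measured genes and 0.27 over the ribosomal proteins. Of 58, 3 were at least 1.5-fold higher and 6 lower in DGK-zeta than in EGFP cells, with a median of 0.04. Against untreated cells 2 were higher and 3 lower, with a median of -0.03. The counts against EGFP are near the shares over all genes. Nop58, a core protein of box C/D small nucleolar particles, had 476 in DGK-zeta cells, 1106 in EGFP cells and 2202 in untreated cells, log2 ratios of -1.22 and -2.21. Ppan, a 60S assembly factor, had 336 in DGK-zeta cells, 670 in EGFP cells and 837 in untreated cells (-1.0 and -1.32). Both had 1 named probe set and were lowest in DGK-zeta cells. Rrp9 had 272 in DGK-zeta cells, 579 in EGFP cells and 281 in untreated cells (-1.09 and -0.05), so for it EGFP cells stood apart. Gnl2, a nucleolar GTPase of 60S assembly, was higher in DGK-zeta cells, at 517, against 296 in EGFP cells and 299.6 in untreated cells (0.81 and 0.79). Its next probe set gave 0.37 and 0.41.

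Of 13 RNA polymerase I genes, which make ribosomal RNA, 1 was higher (Polr1e, log2 0.75) and 1 lower in DGK-zeta than in EGFP cells, with a median of 0.07, too few genes to set against 3.49% and 11.7%. Of 14 measured genes of mTOR and MYC control, 1 was higher and 3 lower, with a median of -0.09. The 3 lower genes, Max, Sesn2 and Rps6kb2, had 50.1, 76.5 and 109 in DGK-zeta cells, under the floor or close to it. Against untreated cells 0 of 13 were higher and 1 lower, with a median of 0.20 and 9 above 0. For EGFP over untreated 3 were higher and 0 lower, beside 4.10% and 1.54% of all measured genes. Among these 3, Sesn2 was under the floor in untreated cells and Rps6kb2 was close to it. Rheb, the GTPase that activates mTOR, had 3697 in DGK-zeta cells, 2385 in EGFP cells and 2651 in untreated cells (log2 0.63 to EGFP). Myc, a transcription factor of ribosome supply, had 709 in DGK-zeta cells, 575 in EGFP cells and 555 in untreated cells (0.30). Ratios to EGFP larger in size than that of Myc included Sesn2 (-0.80), Max (-0.64), Eif4ebp2 (-0.58) and Tsc1 (0.51). Of the 14 genes, 7 lay above 0 and 7 below. Rps6kb2, an S6 kinase, had 109 in DGK-zeta cells, 218 in EGFP cells and 125 in untreated cells, a log2 ratio of -1.0 with DGK-zeta cells just above the floor. The 74 mitochondrial ribosomal protein genes, which build a separate ribosome, had medians of 0.10 for DGK-zeta over EGFP, -0.02 for DGK-zeta over untreated and -0.11 for EGFP over untreated. Of these, 3 were 1.5-fold higher and 1 lower in DGK-zeta than in EGFP cells, the lower one being Mrpl10 (642 in DGK-zeta cells, 1101 in EGFP cells and 1162 in untreated cells). Against untreated cells 2 were higher and 5 lower.

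**Figure D4:**
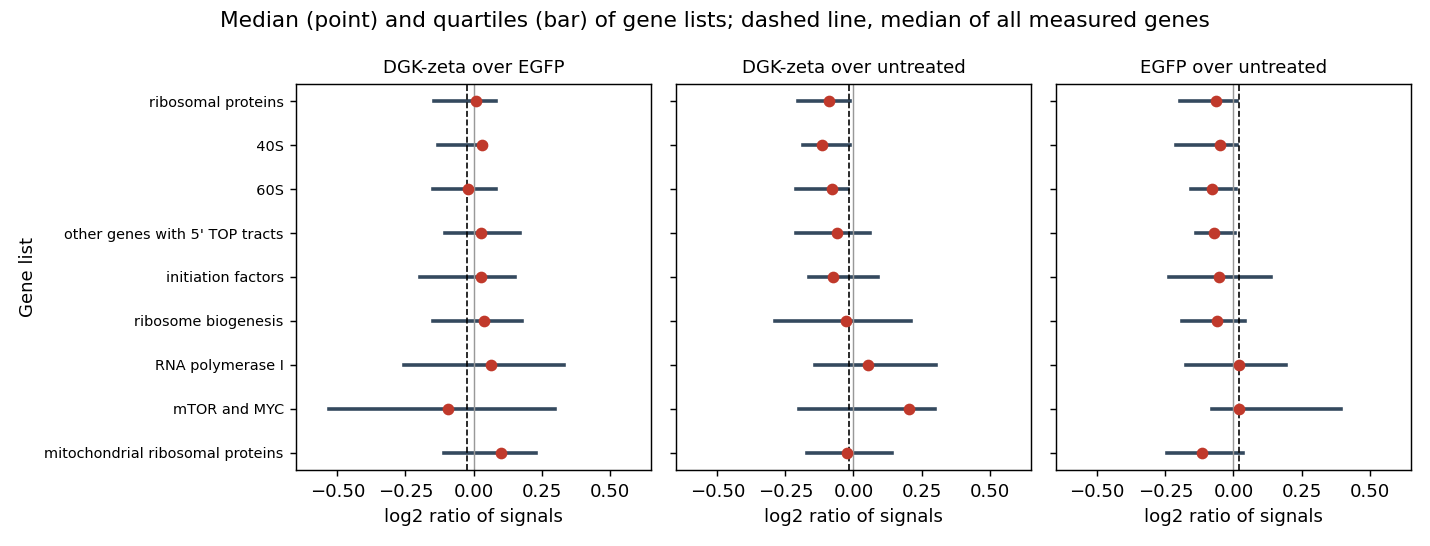
Median (point) and quartiles (bar) of log2 ratios between arrays for ribosomal protein genes, their 2 subunits and 6 lists of genes that work with ribosomes or build other ones, in 3 comparisons. The dashed line is the median of all measured genes. Ribosomal proteins have short bars, while the 14 mTOR and MYC genes have the longest bar for DGK-zeta over EGFP. The 3 of these 14 that were 1.5-fold lower were under the floor or close to it in DGK-zeta cells.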

How the data were processed

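Per the labels' protocols, biotin-labelled RNA of 3 C2C12 samples was hybridised to 1 Affymetrix array each. The authors deposited a linear intensity per probe set. The submitters' processing notes name MAS5, with version and scaling target not given in the sources used here. Each array averages 499.9 between its 2nd and 98th percentile, so the intensities had been scaled and were used as deposited. Their medians were 92.5 for DGK-zeta, 119 for EGFP and 111 for untreated cells, and the number of arrays limits the precision.

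Of 22690 probe sets 64 are controls, 20380 have 1 symbol, 691 several and 1555 none in the platform annotation; 20351 were found in RefSeq (GRCm38.p6) by gene ID and 0 symbols differed. The brightest named set by mean log2 signal stood for a gene. Signals under 107, the 50th percentile, were set to that floor before log2, and genes were counted at 1.5-fold. Start sites came from RefSeq windows of 250 bases before to 50 after the start.

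Members and lists were chosen with earlier results of these data known. Named are the 5 highest and 5 lowest members of each comparison, members past 1.5-fold, those with probe sets at least 1 apart in log2, those under the floor, paralogues, the stalk, Rps6 and Rpsa, and up to 4 genes of other lists; Rpl11 and Rps20, and the sets annotated to several symbols, were added after their values were seen. Rack1 and Rplp1 were not analysed here. Scalings, floors, probe set choices and fold rules were varied. The counting was tested on simulated data. Tools were matplotlib 3.10.9, pandas 2.3.3, numpy 2.4.6 and scipy 1.17.1 under Python 3.11.15.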

Additional observations from a re-analysis of the deposited data

How the results depend on the processing

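With 1 array per group, no array could be left out. No paired analysis was possible because each group holds 1 array. The difference between the members' and all genes' medians stayed within 0.1 of its value in all 12 alternatives. That bound is larger than each difference. For DGK-zeta over EGFP the sign turned with the 75th percentile floor and among genes of mean signal at least 5000. In both comparisons with untreated cells it turned only over the second-brightest sets of 19 members, to 0.004 and 0.01. It stayed below 0 in every other alternative of these comparisons. The ranges were -0.06 to 0.07 for DGK-zeta over EGFP, -0.17 to 0.004 for DGK-zeta over untreated and -0.09 to 0.01 for EGFP over untreated. The ends at -0.06 and -0.17 came from genes of mean signal at least 5000, an alternative not planned beforehand. Equal medians over all named probe sets moved the median of all genes to 0.33, 0.24 and -0.08, and that of the members to 0.37, 0.17 and -0.17 in the same comparisons; equal medians over measured sets moved the members to 0.11 for DGK-zeta over EGFP.

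For DGK-zeta over EGFP, 4 members were higher with equal medians over all sets, 1 with the 75th percentile floor, 1 with the mean over sets, 0 with the second-brightest set, 1 at 2-fold and 4 past 0.32 in log2. Without a floor 2 were lower. For DGK-zeta over untreated, 1 was higher with the mean over sets, 0 with the second-brightest set, 1 without _x_at and _s_at sets and 0 at 2-fold, and 4 were lower past 0.32. For EGFP over untreated, 2 were higher without a floor; 2 were lower with equal medians over all sets, without a floor or with a pseudocount, 0 with the 75th percentile floor or the second-brightest set and 4 past 0.32. Some of these counts were set by which genes could enter. The second-brightest setting held 19 members. Rps27 and Rpl37, with 1 named set each, and Rps6, whose second set was under the floor, were not among them. The 75th percentile floor, 562, lay above every Rps27 signal, and the only named set of Rpl37 ends in _x_at. In the mean over sets, Rps6 was lowered by a set at the floor. These settings are thus no check of those genes. Another alternative, chosen after seeing the data, counted 179 or fewer measured probe sets, several symbols included. Of these, 6 were higher and 1 lower for DGK-zeta over EGFP, 8 and 2 for DGK-zeta over untreated, 2 and 2 for EGFP over untreated. Among all other measured sets with 1 symbol, 461 of 10780 were higher and 1521 lower for DGK-zeta over EGFP. For DGK-zeta over untreated the counts were 856 and 1536 of 10748, and for EGFP over untreated 487 and 328 of 10868.

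Over all genes, 242 were higher and 807 lower for DGK-zeta over EGFP as deposited, against 447 and 505 when quantile-normalized, 1685 and 264 with equal medians over all sets and 493 and 575 over measured sets. For DGK-zeta over untreated the splits were 488 and 689, 667 and 470, 1327 and 312, and 702 and 508. For EGFP over untreated, 284 and 107 became 153 and 181 with equal medians over all sets. The causes were not tested.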

Other observations

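A further 102 probe sets list a ribosomal protein gene together with other symbols, mostly of copies, and name no single gene. They held 6.73% of the summed signal in DGK-zeta cells, 6.97% in EGFP cells and 7.03% in untreated cells, so that these and the 100 member sets made up 12.6%, 13.0% and 13.2%. Their median log2 ratio was -0.07 for DGK-zeta over EGFP (92 measured sets), -0.10 for DGK-zeta over untreated (93) and -0.03 for EGFP over untreated (93). The member sets had -0.05 (86), -0.10 (85) and -0.03 (86) in the same comparisons.

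Actb, used elsewhere as a constant gene, had 5108 in DGK-zeta cells, 16453 in EGFP cells and 17775 in untreated cells, a log2 ratio of -1.69 to EGFP by its brightest probe set. Its other named set had 325 in DGK-zeta cells, 191 in EGFP cells and a signal under the floor in untreated cells. By its brightest set, no ribosomal protein gene was more than 0.31 below EGFP cells. A dimmer set of Rpl41, with 187 in DGK-zeta cells and 286 in EGFP cells, was at -0.62, past 1.5-fold.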
